A study of Caenorhabditis elegans with 2 samples.

Results

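Strong distal intergenic peaks are 473 summits of CEH-9 ChIP-seq that lay far from any protein-coding gene start, out of 30000 entries in the pooled peak list. They were chosen by measured values: the pooled list was sorted by the authors' peak signal and ranks 1 to 3000 were kept. Summits within 100 bp of a transfer RNA, small nucleolar RNA or small nuclear RNA gene, or of the genes rpr-1, mrpr-1 and srpr- for other small RNAs, were dropped. A member then had to lie outside every protein-coding gene and over 1 kb from any protein-coding transcription start site (TSS). Of the strongest 3000 peaks, 1336 were within 1 kb of a TSS (promoter), 566 in an intron or UTR, 393 in a coding exon, 232 at a small RNA gene and 473 were members. A further 5018 distal intergenic summits, called weaker here, ranked lower in the list.

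The study measured chromatin immunoprecipitation sequencing (ChIP-seq) of CEH-9, a protein with a homeodomain, in the nematode Caenorhabditis elegans. Strain OP202 carries the mutation unc-119(ed3) on chromosome III and the transgene wgIs202, from which a CEH-9 fusion with a GFP-FLAG tag at its C terminus is stably expressed. Whole late embryos of both sexes, pooled, were taken 4.75 h after synchronization by egg bleaching, and sonicated chromatin was precipitated with an anti-GFP antibody in 2 biological replicates. These form 1 group with no second condition, both carry the mutation and the transgene, and no untagged strain was analysed here. Since whole embryos were used, binding in more cells and more binding per cell cannot be told apart.

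Homeodomain proteins bind short sequences with a TAAT core and switch genes on or off during development. Regulatory sites of the compact worm genome are mostly found near gene starts, and the longer gaps between genes hold distal enhancers, small non-coding RNA genes, pseudogenes and repeated DNA. A tandem array is a short unit copied head to tail. Reads from such arrays, or from any sequence with several copies, are hard to place on the genome.

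The windows below show what lay under the summits. They run 50 bp to each side of the summit on the plus strand of assembly WBcel235, the same as ce11, with sequence from RefSeq. The first set holds the 6 strongest members on chromosomes II to V and X. Capitals mark the repeat unit that the array repeats most exactly, the word GTTCGA or its reverse complement, or the summit base where neither was found.
Rank 9 (chrIV:11026151-11026251): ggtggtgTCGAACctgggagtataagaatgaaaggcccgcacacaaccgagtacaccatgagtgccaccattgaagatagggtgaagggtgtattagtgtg
Rank 75 (chrX:16944195-16944295): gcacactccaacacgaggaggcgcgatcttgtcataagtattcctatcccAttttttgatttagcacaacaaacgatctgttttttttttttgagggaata
Rank 86 (chrIV:14034042-14034142): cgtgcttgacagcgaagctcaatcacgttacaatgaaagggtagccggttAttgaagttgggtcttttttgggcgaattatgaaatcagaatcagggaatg
Rank 102 (chrX:8602886-8602986): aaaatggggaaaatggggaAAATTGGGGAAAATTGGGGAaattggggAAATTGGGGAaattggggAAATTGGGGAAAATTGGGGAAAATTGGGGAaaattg
Rank 111 (chrII:292435-292535): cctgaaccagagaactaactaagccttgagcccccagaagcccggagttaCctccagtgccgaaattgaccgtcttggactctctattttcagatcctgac
Rank 127 (chrV:18722982-18723082): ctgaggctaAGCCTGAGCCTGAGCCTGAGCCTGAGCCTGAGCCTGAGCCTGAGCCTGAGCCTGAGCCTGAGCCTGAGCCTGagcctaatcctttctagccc

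A second set shows kinds of repeat that recurred among the members, chosen after the values were seen. Capitals mark 1 unit and its exact copies at ranks 130, 267 and 289, the word TTAGGC at rank 380, TTGCCGG at rank 182, and the single-base or dinucleotide run at ranks 350 and 303. Words are marked on either strand.
Rank 130 (chrV:12510122-12510222): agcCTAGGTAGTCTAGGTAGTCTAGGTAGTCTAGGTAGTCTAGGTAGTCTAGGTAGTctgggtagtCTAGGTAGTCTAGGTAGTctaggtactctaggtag
Rank 267 (chrX:5056368-5056468): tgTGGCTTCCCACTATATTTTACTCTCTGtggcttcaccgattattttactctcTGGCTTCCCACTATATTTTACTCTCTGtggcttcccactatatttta
Rank 289 (chrIII:931600-931700): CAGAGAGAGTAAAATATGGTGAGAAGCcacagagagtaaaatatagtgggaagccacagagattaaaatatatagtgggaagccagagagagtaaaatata
Rank 380 (chrII:2859454-2859554): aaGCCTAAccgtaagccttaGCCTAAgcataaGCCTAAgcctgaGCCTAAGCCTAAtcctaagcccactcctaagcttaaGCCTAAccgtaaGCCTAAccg
Rank 182 (chrII:12690345-12690445): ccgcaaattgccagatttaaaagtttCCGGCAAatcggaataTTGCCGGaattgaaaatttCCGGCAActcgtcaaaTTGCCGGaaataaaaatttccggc
Rank 350 (chrX:2583447-2583547): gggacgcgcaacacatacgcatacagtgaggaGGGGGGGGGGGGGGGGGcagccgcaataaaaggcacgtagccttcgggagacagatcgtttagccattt
Rank 303 (chrV:15811-15911): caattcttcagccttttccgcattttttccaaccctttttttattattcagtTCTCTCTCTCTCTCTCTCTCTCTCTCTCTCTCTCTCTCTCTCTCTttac

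The strongest member, rank 9 of the pooled list with a signal of 215, covered chrIV:11025991-11026410 between alh-3 and hrg-5, a gene of the heme-responsive family. Its summit lay inside the annotated non-coding RNA gene F36H1.17 and near mir-51, and a summit within 100 bp held rank 7 in replicate 1 and rank 10 in replicate 2. Its window held GGTTCGA on the minus strand. Those letters are the core of the B box, the internal promoter element of tRNA genes that transcription factor TFIIIC reads, and the nearest small RNA gene of the excluded classes was 56946 bp away. The same letters were in the windows of 8 members (1.69%), 1.41% of the weaker distal intergenic windows and 36.2% of windows at small RNA genes. A match of letters is a description, not a site. The next member with a match held rank 422.

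MicroRNA genes lay within 100 bp of 3 members, a share of 0.634% (exact interval 0.131 to 1.84%). The weaker distal intergenic summits had 0.179% and the strongest 3000 peaks 0.233%, both inside that interval. The mir-51 family, to which mir-51 and mir-52 belong, is required jointly for embryonic development in C. elegans. Capitals in the mature sequences mark the seed, bases 2 to 8, which pairs with target messages.
mir-51 arm a: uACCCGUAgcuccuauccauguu
mir-52 arm a: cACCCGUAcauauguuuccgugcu
mir-74 arm b: uGGCAAGAaauggcagucuaca
The first pair shares the seed ACCCGUA. At mir-52, the member of rank 86 (signal 101) lay 9688 bp from the nearest protein-coding TSS. Replicate 1 had a summit of rank 26 within 100 bp of it, while the nearest summit of replicate 2, of rank 115, lay 141 bp away and so fell outside that distance. At mir-74 the member ranked 2117 (signal 48.1). Of the 3, only the peak at mir-51 was among the strongest 3000 of both replicates at the 100 bp distance.

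Only 16 of the 473 members (3.38%) were in the authors' reproducible list, against 6.9% of the strongest 3000 peaks. That list was exactly the first 207 ranks of the pooled list, so this count restates the members' ranks. The signal ran from 45 to 215 with a median of 50.4, and the authors' −log10 q from 0.354 to 2.49. A q of at most 0.05 was reached by 32 members (6.77%), against 11.4% of the strongest 3000. Nothing separated the members from their neighbours at the limit. The last members inside, ranks 2992 near tps-1, 2995 near skr-4 and 2996 near K06A9.3, and the first summits outside, ranks 3007 near srh-303, 3013 near comt-5 and 3026 near ttx-1, all had a signal of 45. Most members were thus weak peaks by the authors' own measure.

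The members' ranks in the 2 replicate lists were largely different. Among the strongest 3000 of replicate 1, 123 members (26%) had a summit within 100 bp, against 29.8% of the strongest 3000 pooled peaks. For replicate 2 the count was 254 (53.7%), against 55.5%. Only 36 members (7.61%, exact 95% interval 5.39 to 10.4%) were that strong in both, against 12.9% of the strongest 3000, 10.7% of promoter summits and 9.89% of those in introns or UTRs. Coding exon summits had less, at 5.6%. Small RNA gene summits had 55.6%, and gave 129 of the 386 such peaks of the strongest 3000. Anywhere in the 30000 entries of each list, 326 members had a summit in replicate 1, 450 in replicate 2 and 4 in neither. The median rank was 5092 in replicate 1 and 2313 in replicate 2. Across the 307 members in both lists the ranks had a Spearman's rho of -0.263, and across the 1927 such peaks of the strongest 3000 it was -0.0381. All these points were selected on the pooled signal, which was made from the same libraries. Such a selection can by itself lower the correlation of ranks, so rho does not measure how well the replicates agree over all peaks. Summits counted at 50 bp or 200 bp gave 5.07% and 11.2% in both replicates.

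**Figure D1:**
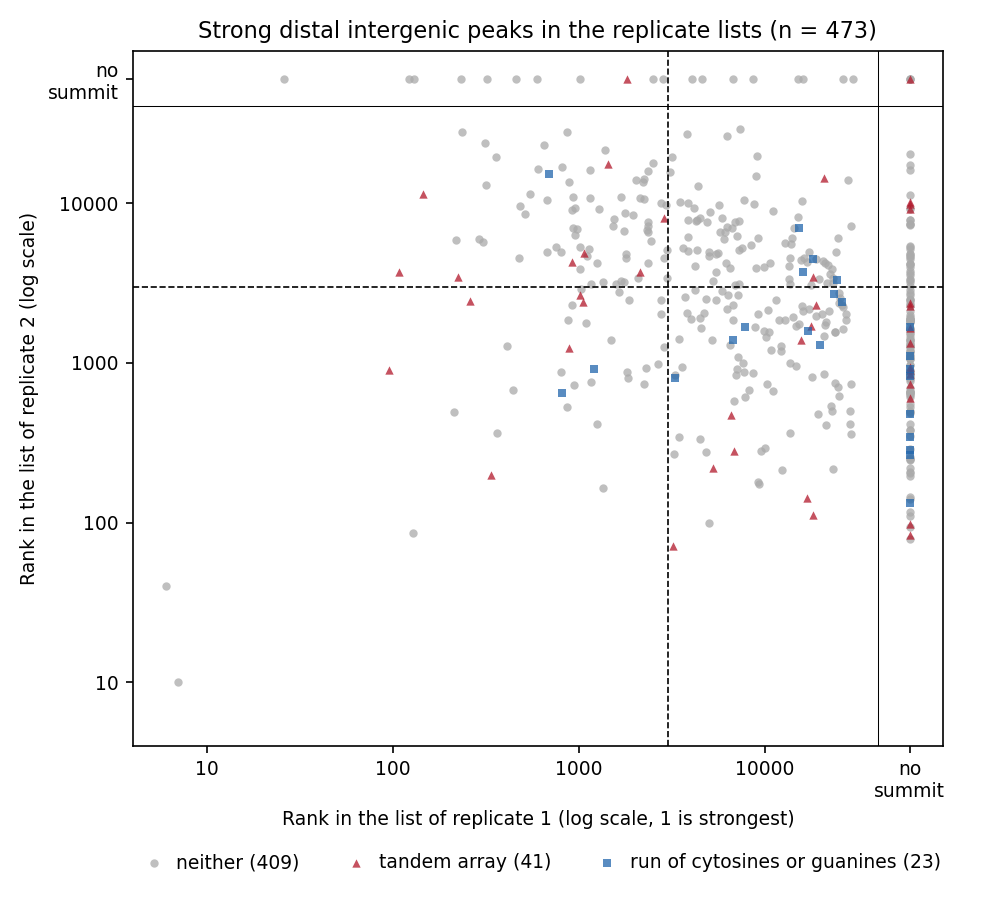
Rank of each of the 473 members in the list of replicate 1 (horizontal, log scale) and of replicate 2 (vertical, log scale), where a summit lay within 100 bp; members with none sit in the outer strips, dashed lines mark rank 3000, and colours mark the window's repeat kind. The 36 members in the lower left box were among the strongest 3000 of both, and squares, with a run of cytosines or guanines, sit mostly low on the vertical axis and far to the right.

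Among the members well supported in both lists, the strongest after rank 9 was at chrI:933306-933725, upstream of nas-30, an astacin metalloprotease gene. It ranked 63 in the pooled list (signal 119), 6 in replicate 1 and 40 in replicate 2. Its window held a word of 36 bases with 317 copies in the genome and a self-match of 59.7%, just under the limit of 60% used for arrays below. The member of rank 75 (signal 107) lay inside the non-coding RNA gene C30E1.9 on chromosome X, 8294 bp from F52G3.8, and ranked 128 and 86 in replicates 1 and 2. A second member at C30E1.9, of rank 320, ranked 1348 and 165. Rank 127, the AGCCTG array upstream of Y17D7C.2, ranked 336 and 199. Rank 189 near F09C8.1 ranked 213 and 492, and F09C8.1 was the nearest gene of 3 members, the most for any gene. Rank 154, upstream of ntc-1, which encodes the neuropeptide nematocin, ranked 1253 and 412. These members were among the strongest 3000 of both libraries.

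Several others among the strongest 20 ranked far apart in the libraries or had a summit within 100 bp in 1 of them only. Rank 111, at chrII:292275-292694 near djr-1.1, a DJ-1 related gene, ranked 79 in replicate 2 and had no summit within 100 bp in replicate 1. The same held for rank 183 near cah-3, a carbonic anhydrase gene, at 94 in replicate 2, and for rank 159 near Y49G5A.1 at 84. Rank 163 lay 1009 bp upstream of flh-3, a FLYWCH zinc finger gene, and ranked 5004 and 99. Rank 165, upstream of sax-3, which encodes the axon guidance receptor Robo, ranked 12241 and 212. Rank 196 lay within 100 bp of 2 annotated non-coding RNA genes, upstream of egl-27, a gene for an MTA-type chromatin factor, and ranked 3218 and 267. Rank 130, near T28H10.2, was the reverse case, at 108 in replicate 1 and 3731 in replicate 2. The rest of the 20 were ranks 102 and 224 near F18E9.1, 182 near tbc-17, 208 near F58E2.4, 229 near T25D1.1 and 250 near bam-2, a neurexin-related gene. Of these, rank 229 was strong in both libraries, at 811 and 649. Replicate 2 gave the better rank for 181 of the 307 members in both lists and replicate 1 for 126.

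Members lay a median of 2844 bp from the nearest protein-coding TSS, from 1003 to 41035 bp, and 325 of them (68.7%) were upstream of that gene. The weaker distal intergenic summits had a median of 2659 bp and 69.4% upstream. The gap between genes was divergent for 153 members (32.3%), between genes in the same direction for 254 (53.7%) and convergent for 64 (13.5%), against 30.9%, 56.5% and 12.4% of the weaker summits. The median gap was 8248 bp against 7646 bp. By these measures of position the strong and the weaker summits were much alike. The members formed 461 loci when those within 1 kb were joined, and had 426 different nearest genes.

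Chromosome X held 115 members (24.3%, exact 95% interval 20.5 to 28.4%), the most of any chromosome. The weaker distal intergenic summits had 21% there, the genome length 17.7% and the promoter summits 12%. Small RNA gene summits had more than the members, at 34.1%, and the strongest 3000 as a whole had 15.5%. Per megabase, X carried 6.49 members and chromosome V, the lowest, 3.2. Applied to the list of replicate 1 alone, the rule gave 20.5% on X against 20.8% of its weaker summits, and in replicate 2 alone 23.8% against 21.6%. The excess over the weaker summits was thus a few points in the pooled list and replicate 2 and absent in replicate 1. Non-coding RNA genes lay within 100 bp of 56 members (11.8% against 7.37% of the weaker summits), and 25 of these 56 were on X. The strongest 3000 as a whole had 10.4%, inside the members' exact 95% interval of 9.07 to 15.1%, and small RNA gene summits had 53%. Pseudogenes were near 36 members (7.61% against 9.69% of the weaker summits). The central 50% of each chromosome held 34% of members and 38.6% of the weaker summits.

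**Figure D2:**
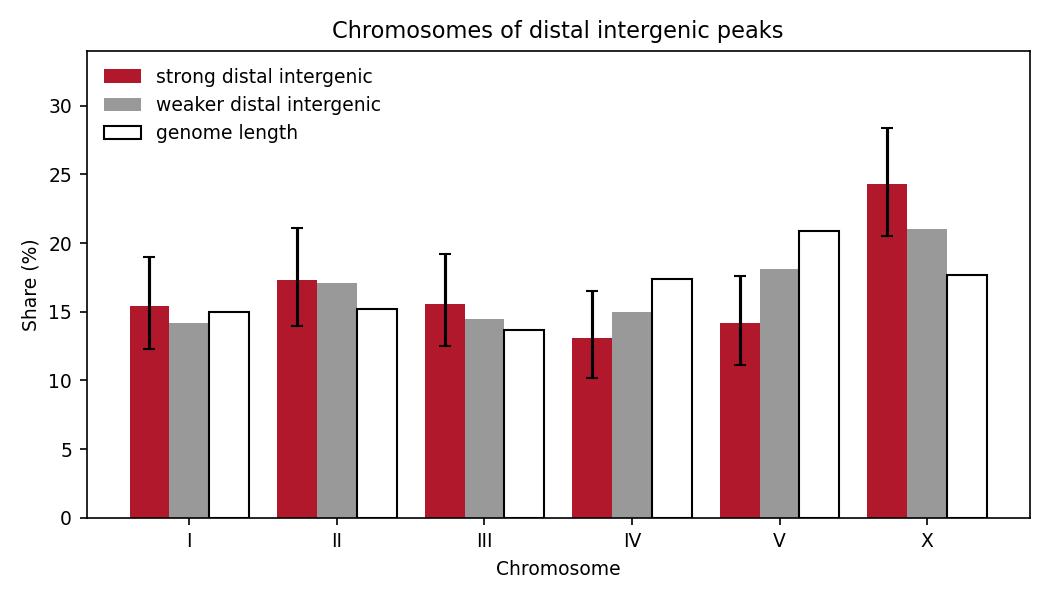
Share of the 473 strong and the 5018 weaker distal intergenic summits on each chromosome, beside the chromosome's share of the genome length; error bars are exact 95% intervals of the strong summits. X stands at 24.3% against 17.7% of the length, and V at 14.2% against 20.9%.

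The windows of members were richer in G and C than those of weaker summits between genes. In 75 bp to each side of the summit the median GC content was 44.4%, from 19.9 to 75.5%, against 39.1% at weaker distal intergenic summits. Promoter summits had the same median of 44.4%, introns or UTRs 42.4% and coding exons 47.7%. In replicate 1 alone the medians were 41.1% and 37.7%, and in replicate 2 alone 44.4% and 39.1%, so strong summits were higher in each library. The authors' lists give no correction for base composition, and its part in the strength of a peak was not tested.

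**Figure D3:**
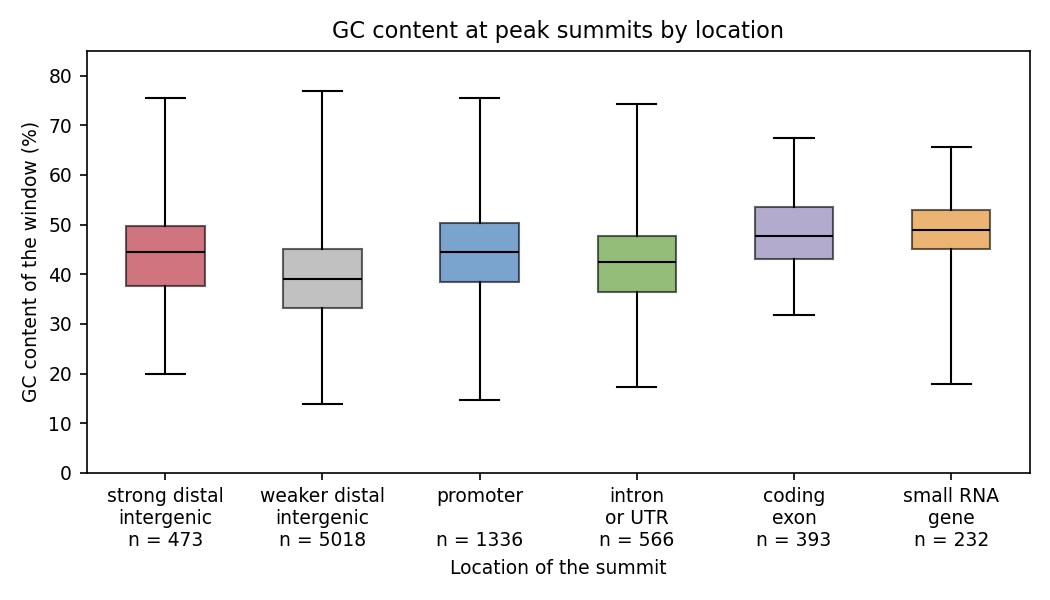
GC content of 75 bp to each side of each summit, by location, for the strongest 3000 peaks and the weaker distal intergenic summits; lines are medians, boxes the quartiles and whiskers the lowest and highest window. Strong distal intergenic and promoter windows share a median of 44.4%, above the 39.1% of weaker distal intergenic windows.

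Tandem arrays filled a larger share of the strongest members. A window was counted as an array where at least 60% of its bases equalled the base 1 period further on, for any period up to 50 bp, a limit chosen after the data were seen. Arrays made up 41 members (8.67%, exact 95% interval 6.29 to 11.6%), against 6.2% of the strongest 3000, 3.43% of weaker distal intergenic, 6.29% of promoter and 9.89% of intron or UTR summits. By rank, 7 of the 20 members of ranks 1 to 250 were arrays (35%, exact 15.4 to 59.2%) and 8 of 37 in ranks 251 to 500 (21.6%). Among the 7, ranks 102 and 224 lay in the same gap of 1012 bp on X, and the interval counts them as separate. Below rank 500 the share did not fall steadily, with 3 of 69 in ranks 501 to 1000 (4.35%), 17 of 176 in ranks 1001 to 2000 (9.66%) and 6 of 171 in ranks 2001 to 3000 (3.51%). In replicate 1 alone the shares were 5.48% of strong and 2.6% of weaker summits, in replicate 2 alone 9.09% and 3.65%. The strong summits had the higher share in both libraries. Of the 41 arrays 27 had a period of 21 to 50 bp, and 26 held a word of 36 bases with another copy in the genome, against 8.8% of the other 432 members. A repeated word of that length was in 64 members in all (13.5%), against 14.2% of the strongest 3000 and 14.4% of weaker summits. Read length, multiple mapping and the control library were not analysed here, and their part in these peaks was not tested.

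**Figure D4:**
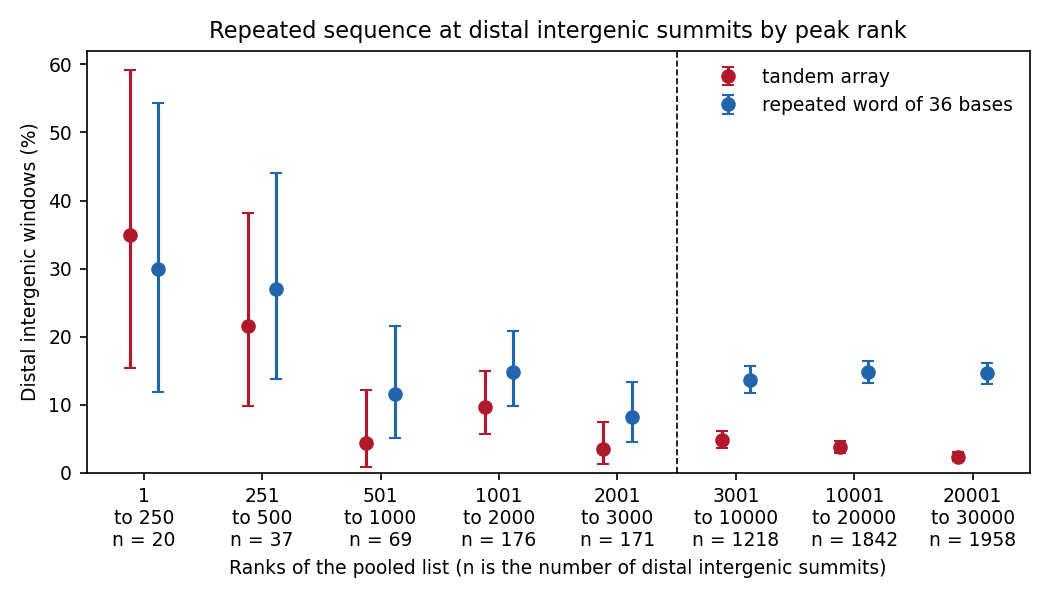
Share of distal intergenic windows that were a tandem array or held a repeated word of 36 bases, by rank in the pooled list, with exact 95% intervals; the dashed line marks rank 3000 and n is given under each range. Arrays are at 35% of ranks 1 to 250 and 2.3% of ranks 20001 to 30000, with 4.35% and 9.66% at ranks 501 to 1000 and 1001 to 2000, and repeated words are at 30% and 14.6% at the ends.

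Several members carried the same repeat at different places. By shared words of 20 bases on either strand, 60 members (12.7%) fell into 11 families. The largest had 18 members on 6 chromosomes, with the best at rank 182 upstream of tbc-17, whose window, printed above, holds TTGCCGG in both directions. TTGCCGG occurred at least 2 times in 21 members (4.44%), 3.41% of weaker, 2.69% of promoter and 7.6% of intron or UTR summits. The next family had 11 members on 5 chromosomes and held TTAGGC, the unit of the C. elegans telomere, with the best at rank 380 upstream of Y110A2AL.5. This summit lay far inside chromosome II, within 100 bp of the non-coding RNA gene Y110A2AL.18, and ranked 884 and 1243 in replicates 1 and 2. TTAGGC occurred at least 2 times in 21 members (4.44%), 1.61% of weaker, 2.99% of promoter and 5.48% of intron or UTR summits. None of these 21 was on X, which held 24.3% of all members.

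A unit of 27 bp was shared by 3 members that were high in both libraries. These, rank 63 near nas-30, rank 267 on X near C24H10.4 and rank 289 near fbxa-55, an F-box gene, were on 3 chromosomes, and the windows of the last 2 are printed above. Words of 36 bases from them occurred 317, 322 and 317 times in the genome. In replicate 1 they ranked 6, 258 and 95, and in replicate 2 they ranked 40, 2452 and 900. All 3 were among the strongest 3000 of both libraries, as 36 of the 473 members were. The CTAGGTAGT array had 2 members near T28H10.2, of ranks 130 and 1998, with 97 copies of a shared word, and the array of rank 102 had a neighbour of rank 224 on the same stretch of X. A run of TC repeats near the end of chromosome V, upstream of egl-8, a phospholipase C gene, had rank 303 and ranked 362 and 366 in the replicates, with words present 2117 times.

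Runs of at least 12 cytosines or guanines marked 23 members (4.86%, exact 95% interval 3.11 to 7.21%), against 2.27% of weaker, 1.72% of promoter and 2.47% of intron or UTR summits. Such tracts are known in C. elegans as sites that the helicase DOG-1 protects from deletion. Here 13 of the 23 were on X, which held 24.3% of all members, and the longest run was 21 bases. Most ranked high only in replicate 2, where 18 (78.3%) were among its strongest 3000 but 3 (13%) were among those of replicate 1. Of all members, 53.7% and 26% were. The median ranks were 1302 in replicate 2 and 15598 in replicate 1, against 2313 and 5092 for all members. Of the 14 in both lists, 13 ranked better in replicate 2, against 181 of 307 for all members. Rank 270 near mca-3, a calcium pump gene, had rank 132 in replicate 2 and no summit within 100 bp in replicate 1, as did rank 579 near sup-12, a muscle splicing factor gene, at 341. Rank 970 near unc-62, a Meis-type homeobox gene, ranked 6721 and 1400. Rank 229 near T25D1.1 was strong in both, at 811 and 649. In replicate 1 alone, runs were in 0.811% of strong and 0.919% of weaker summits, and in replicate 2 alone in 7.44% and 2.55%. The genome has 763 such runs of 15 to 19 bases, of which 33 (4.33%) had one of the strongest 3000 pooled summits, of any location, within 75 bp. Of the 412 runs of 10 to 11 bases, 9 (2.18%) did. For distal intergenic runs, members were at 12 of 300 of the longer (4%, exact 95% interval 2.08 to 6.88%). They were at 4 of 141 of the shorter (2.84%, 0.778 to 7.1%), and the 2 intervals overlap.

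**Figure D5:**
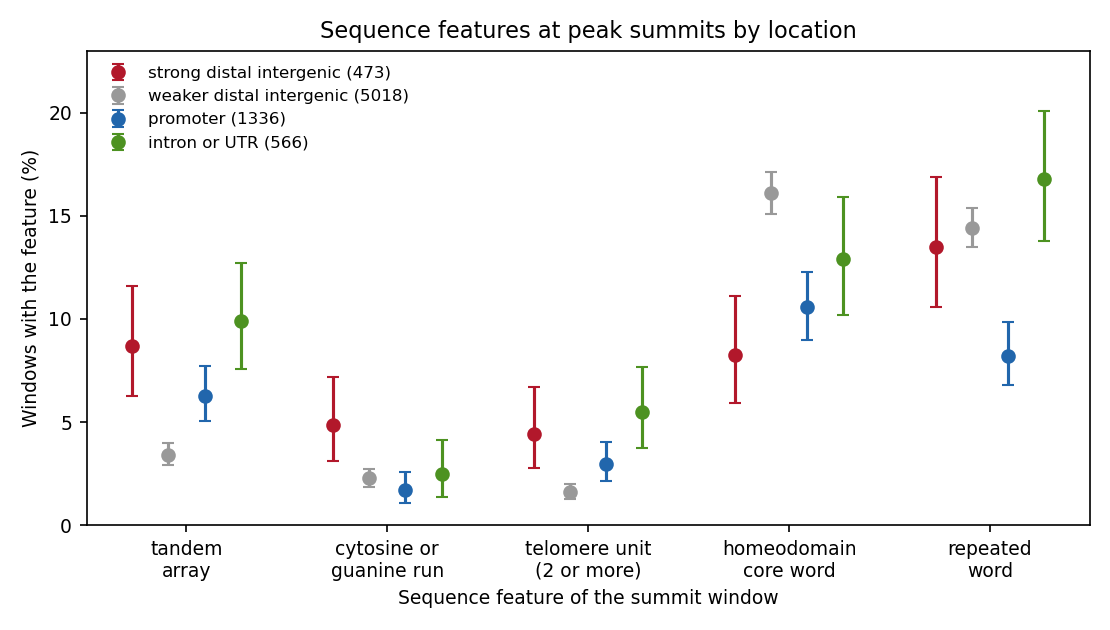
Share of windows with each of 5 sequence features at strong distal intergenic, weaker distal intergenic, promoter and intron or UTR summits, with exact 95% intervals. Strong distal intergenic windows had more arrays (8.67% against 3.43%) and cytosine or guanine runs (4.86% against 2.27%) than weaker ones, and fewer homeodomain core words (8.25% against 16.1%).

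The homeodomain words TAATTA and TAATTG were less frequent at members than at weaker summits. Searched on both strands, 1 or both were in 39 members (8.25%, exact 95% interval 5.93 to 11.1%), against 16.1% of weaker, 10.6% of promoter and 12.9% of intron or UTR summits. Coding exon summits had 6.36% and small RNA gene summits 6.03%. The strongest 3000 as a whole had 9.73%, inside the members' interval. TAATTA alone was in 13 (2.75%) and TAATTG in 27 (5.71%). By GC content the share was 11% against 22.1% of weaker windows under 35% GC, 14.3% against 17.8% from 35 to 40%, 9.76% against 13.6% from 40 to 45%, 6.31% against 11% from 45 to 50% and 2.59% against 6.37% from 50%. The size of the gap was not stable across libraries. In replicate 1 alone, without replicate 2, the share was 12.8% of strong against 17% of weaker summits, and in replicate 2 alone, without replicate 1, it was 13.2% against 16.1%. TAATTA was then in 4.06% and 5.37%, and TAATTG in 9.33% and 8.26%. Of the 39, 1 (2.56%) was among the strongest 3000 of both replicates, against 7.61% of all members and 12.9% of the strongest 3000. So small a count says little about these members as a set. It was the strongest of the 39, rank 63 near nas-30, at 6 and 40. The strongest on chromosomes II to V and X was rank 252, upstream of toca-1, a gene of endocytosis, with TAATTA in capitals.
Rank 252 (chrX:1523901-1524001): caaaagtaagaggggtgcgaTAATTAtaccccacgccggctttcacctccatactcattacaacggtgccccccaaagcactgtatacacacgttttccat
It ranked 110 in replicate 2 and had no summit within 100 bp in replicate 1. The same was true of rank 255, upstream of pop-1, the TCF factor of the Wnt pathway, at 117 in replicate 2, and of rank 367, upstream of the kinase gene src-1, at 248. Rank 336, an array upstream of F52G2.3, went the other way, at 145 in replicate 1 and 11412 in replicate 2.

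Words of simple repeats were more frequent at members than at weaker summits, and A-rich words less frequent. Of the 14 words searched, GAGAGA was in 18.6% of members against 11.4% of weaker windows, and CACACA in 13.7% against 9.01%. The GATA-type word TGATAA was in 5.07% against 9.74%, and AAAAAA in 41.4% against 50.6%. In windows at small RNA genes GAGAGA was in 22.8% and CACACA in 13.8%. At promoter, intron or UTR and coding exon summits GAGAGA was in 11.1%, 9.01% and 8.14%, and CACACA in 9.51%, 10.2% and 6.62%. AAAAAA was rarer still at promoter (35.5%), small RNA gene (34.1%) and coding exon summits (15.5%), while introns or UTRs had 47.2%. A low share of AAAAAA was thus not particular to the members. The homeodomain words TAATGA and TAATGG, the words CAAGTG of NK-type factors, CAGCTG and CACGTG of helix-loop-helix factors and TGAGTCA of AP-1 type factors were each within 2 percentage points of the weaker windows, and so were GCGCGC and GTTCGA. Of all words of 6 bases, the 5 with the largest difference were rarer at members. TAAAAA was in 23.5% against 35.3%, AAAAAC in 23.7% against 35%, TTAAAA in 19.2% against 29.1%, and TGAAAA in 30.9% against 39.8%, with AAAAAA as above. The largest excess was that of AGAGAG (17.8% against 9.69%), followed by GAGAGA and CCCCCC (13.1% against 6.26%). GAGAGA kept its excess in both libraries, at 16.4% against 11.4% in replicate 1 and 17.1% against 11.4% in replicate 2. By GC content its share was 15.1% of members against 4.95% of weaker windows under 35% GC, 9.89% against 10.5% from 35 to 40%, 18.3% against 13% from 40 to 45%, 19.8% against 19.3% from 45 to 50% and 26.7% against 17.6% from 50%.

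The nearest protein-coding genes covered many functions, and none of 12 gene lists took more than 2.54% of the members. The lists match gene symbols and are not complete, so each count is of listed genes. Examples outside them were the homeobox gene unc-62 (ranks 914 and 970), the collagen gene dpy-10 (rank 872), the acetylcholine-gated channel gene unc-63 (rank 759) and the insulin-like gene daf-28 (rank 1703). Listed homeobox genes were nearest to 6 members (1.27%), against 1.63% of weaker summits and 0.491% of all protein-coding genes. The strongest of these 6 was near the POU factor gene ceh-18 (rank 377, at 9152 and 179 in replicates 1 and 2), followed by hmbx-1 (rank 1732) and the ZEB-type gene zag-1 (rank 1835). Other developmental factors had 11 members near 9 distinct genes (2.33% of members against 1.22% of weaker summits). They were led by egl-27, the SOX factor gene sox-2 (rank 435) and the basic helix-loop-helix gene hlh-28 (rank 639). The window near hlh-28 was an array inside a pseudogene. This member ranked 1813 in replicate 1, and the nearest summit of replicate 2, of rank 2595, lay 106 bp away, just outside the 100 bp distance. The weaker summits, too, had a larger share of homeobox and other developmental genes than all protein-coding genes have (1.22% against 0.486% for the latter list). The lists were read by the nearest start site, which need not be the gene a site acts on.

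Genes for receptors, secreted proteins and channels were spread through the ranks. Chemoreceptors were nearest to 12 members (2.54% against 3.93% of weaker summits and 6.55% of genes), led by sri-5 (rank 257), sre-47 (rank 450, an array) and srg-37 (rank 459). Nuclear hormone receptors had 4 (0.846% against 2.01%), among them nhr-235 and the NR4A-type nhr-6. Listed neuropeptide genes had 4 (0.846% against 0.837%), with ntc-1, the insulin-like ins-33 and nlp-6. F-box and MATH protein genes had 5 (1.06% against 1.47%), with fbxa-55, bath-27 and fbxb-78. Listed ion channels had 3, the glutamate-gated channel glc-4, the potassium channel twk-39 and the ERG channel unc-103. Listed cuticle collagens had 2, both near col-88, C-type lectins 2, clec-258 and clec-48, the patched-related genes 2, ptr-12 and ptr-14, and the cytochromes and UDP-glucuronosyltransferases 1, cyp-42A1, whose window was an array. Core histones had none. The tagged gene ceh-9 itself was 37.8 kb from the nearest member, rank 2365.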

How the data were processed

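Peak lists in ce11 of 2 replicates, of both pooled, and the reproducible list were used. Per the labels' file notes, each relaxed list came from alignments against a control and the reproducible list from comparing them. Read length, the peak caller, the aligner and software versions are not given in the labels used here. The authors deposited a signal per peak, read by rank within a list, and a −log10 q per peak. No read counts are given, so depth is unknown, and the exact 95% (Clopper-Pearson) bounds reflect only how many peaks were counted. Each relaxed list holds 30000 entries, so presence in it says little.

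Genes came from Ensembl release 115 (assembly WBcel235, identical to ce11), sequences and mature miRNAs from RefSeq. Summit windows of 75 bp to each side were scanned on both strands. Members are not replicates, there is 1 group, and no test was made: values stand beside those of other summits. The members and lists were chosen with earlier results of these data known. Genes were named by rule: nearest genes of the 20 strongest members, up to 3 members per gene list, and ceh-9. Members of repeat families, of runs, at miRNA or other non-coding RNA genes, near the rank limit, with GGTTCGA, near the 4 genes outside the lists, and with TAATTA or TAATTG after rank 252, and their genes, were named after their values were seen. The scans were tested on simulated data. The tools were matplotlib 3.10.9, scipy 1.17.1, numpy 2.4.6 and Python 3.11.15. Alternatives changed ranks, distances, windows, words, array limits and libraries.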

Additional observations from a re-analysis of the deposited data

How the results depend on the processing

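Of 66 alternatives for the main results, 42 stayed within the exact interval or 1.5 times a count, and of 225 in all, 147 did. Ranks 1 to 1000, 2000 and 5000 gave 126, 302 and 804 members, and each replicate list alone gave 484 to 493. The share strong in both replicates was 23.8%, 11.9% and 4.48% for those rank limits, 5.07% and 11.2% for summits within 50 and 200 bp, 2.54% for the strongest 1000 of each list and 64.9% for the whole lists. The share on X was 31.7% for ranks 1 to 1000 and 20.5% to 23.8% when a replicate was left out. Median GC content was 41.1% to 44.4% when a replicate was left out and 42.9% in windows of 150 bp to each side. Repeated words were in 19% for ranks 1 to 1000, 10.6% and 20.7% for windows of 50 and 150 bp to each side, 5.92% with words of 50 bases and 8.8% outside arrays. Arrays were 14.3% and 11.6% for ranks 1 to 1000 and 1 to 2000, 14.2% and 5.92% at limits of 50% and 70%, and 5.48% to 9.09% when a replicate was left out. The share with cytosine or guanine runs was 0.811% without replicate 2 and 7.44% without replicate 1. Array, run, TTAGGC and combined TAATTA or TAATTG alternatives were added after the data were seen, and the cause of these shifts was not tested. No paired analysis was possible because there is 1 group.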
